A study of Bos taurus with 17 samples.

Results

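The enzymes and chaperones that modify and fold collagen chains in the endoplasmic reticulum were followed in bovine umbilical cord mesenchymal stem cells cultured for cultivated meat. The set held 10 genes chosen by symbol: P4HA1, P4HA2, P4HA3, P4HB, PLOD1, PLOD2, PLOD3, SERPINH1, P3H1 and CRTAP. All 10 were among the 12894 genes of the deposited table, and all 10 were among the 10960 genes tested. RNA 3′ ends were counted by MARS-seq in primary cultures from umbilical cord that differed in substrate and time. On the smart scaffold, VEGF, IGF and FGF were attached to the cellulose and left out of the medium, and cells were taken at day 21 (3 libraries). On the media scaffold, the same factors were in the medium, and cells were also taken at day 21 (4 libraries). Plastic plates gave 3 libraries of day 0, when cells had 10% serum and no differentiation medium, 3 libraries of day 3 in that medium and 2 libraries of day 21. The differentiation medium of every group after day 0 held 2% serum, dexamethasone and 1e-04 M ascorbate-2-phosphate, so ascorbate, serum, time and factors changed together between day 0 and later days. The design text calls the libraries biological replicates but gives no number of donor animals, so p-values measure the spread between these libraries alone.

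Collagen chains are hydroxylated on prolines and lysines before they fold into a helix. Prolyl 4-hydroxylase, built of a catalytic alpha subunit (P4HA1, P4HA2 or P4HA3) and protein disulfide isomerase (P4HB), makes the 4-hydroxyproline that keeps the helix stable at body temperature. Lysyl hydroxylases are encoded by PLOD1, PLOD2 and PLOD3: PLOD1 acts mainly on lysines of the helix, PLOD2 on those of the telopeptides, where it sets the kind of cross-link formed, and PLOD3 also adds glucose to hydroxylysine that carries galactose. P3H1 and CRTAP form, with the isomerase PPIB, the complex that 3-hydroxylates proline in type I collagen. SERPINH1 (HSP47) is a collagen-specific chaperone. The hydroxylases need oxygen, iron, 2-oxoglutarate and ascorbate.

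Values are normalized reads, read counts divided by the authors' scaling factor of each library. Fold changes are differences in log2(value + 1) from limma, given with standard errors (SE) and p-values adjusted over all tested genes of a comparison. A gene rose or fell where the adjusted p was under 0.05 and the log2 fold change was at least 1 in size. Because 3′ ends were counted and no transcript length was used, levels are compared between groups and not between genes.

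At day 21, 5 of the 10 genes rose on the smart scaffold against plastic and 0 fell, where 37.5% of all tested genes changed, 21.4% rising and 16% falling. On the media scaffold, 6 rose against plastic and 0 fell, where 35.4% of all tested genes changed, 20.8% rising and 14.6% falling. The genes that rose on both scaffolds were P4HA1, P4HA2, P4HA3, PLOD2 and SERPINH1, and CRTAP rose on the media scaffold. Both comparisons share the 2 plastic libraries. Libraries did not overlap between smart scaffold and plastic for 9 of the 10 genes and for 73.1% of all tested genes, and between media scaffold and plastic for 8 of the 10 and 71.2%. Among these, P4HB (-0.23) and P3H1 (-0.14) lay lower on the smart scaffold and P3H1 (-0.18) on the media scaffold, on the log2 scale. None of these lower values passed either threshold. The median log2 fold change of the 10 genes was 0.93 on the smart scaffold and 1.09 on the media scaffold, against medians of 0.014 and 0.016 over all tested genes. Together the 10 genes took 0.473% ± 0.015 of the library signal on the smart scaffold (SD, n = 3) and 0.465% ± 0.019 on the media scaffold (n = 4). On plastic their share was 0.321% ± 0.0087 at day 0 (n = 3), 0.262% ± 0.012 at day 3 (n = 3) and 0.320% ± 0.016 at day 21 (n = 2). In RNA from whole cultures, fewer cells of a type and less RNA per cell cannot be told apart.

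**Figure D1:**
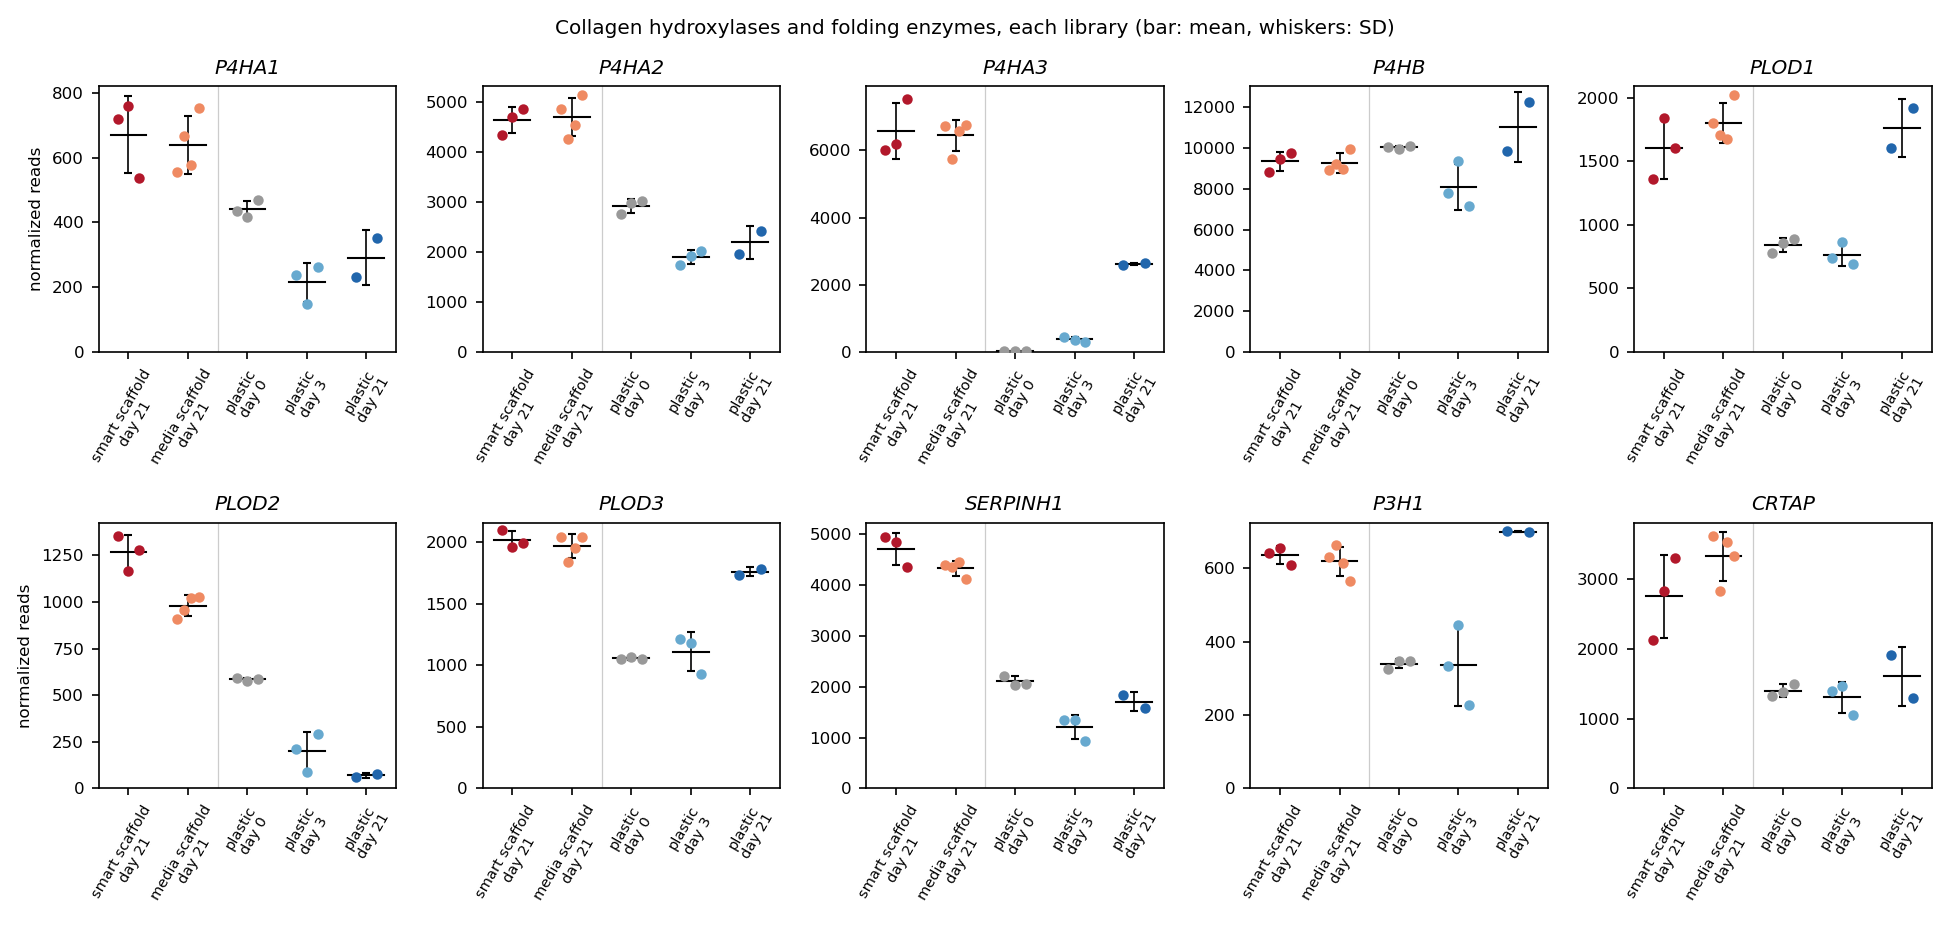
Normalized reads of the 10 genes in each library (points) with group means (bars) and SD (whiskers), for the smart and media scaffold at day 21 and for plastic at day 0, 3 and 21, each panel on its own linear axis. P4HA3 averaged 18.2 normalized reads on plastic at day 0, and PLOD2 averaged 70.6 on plastic at day 21, the lowest group means of these genes.

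P4HA3 (ENSBTAG00000006579), a catalytic alpha subunit of prolyl 4-hydroxylase, had the widest range of the 10 genes. It had 6020.5, 6200.0 and 7543 normalized reads on the smart scaffold and 6716, 5750.0, 6575 and 6749 on the media scaffold. On plastic it had 16.9, 18.7 and 18.9 at day 0, 456, 361 and 299.9 at day 3, and 2590.4 and 2646 at day 21. Each time on plastic was separate from the next, both scaffold groups lay above all plastic libraries, and the scaffold groups overlapped each other. P4HA3 rose at day 3 against day 0 by a log2 fold change of 4.26 (SE 0.13, adjusted p = 2.70e-13), a ratio of means of 20.5. At day 21 against day 0 on plastic the log2 fold change was 7.10 (SE 0.15, adjusted p = 2.18e-16), a ratio of means of 144. The day 0 level rested on 24 or more reads in every library. On top of this change in time, the smart scaffold stood 2.52-fold above plastic at day 21 (log2 fold change 1.32, SE 0.15, adjusted p = 5.81e-07). The media scaffold stood 2.46-fold above plastic (log2 fold change 1.30, SE 0.14, adjusted p = 4.13e-07).

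P4HA1 (ENSBTAG00000032996) and P4HA2 (ENSBTAG00000001116), the other two alpha subunits, followed another course in time. P4HA1 had 718, 758 and 537 normalized reads on the smart scaffold and 556, 666, 578 and 752 on the media scaffold. Plastic libraries had 437, 416 and 468 at day 0, 236, 148 and 262 at day 3, and 230.5 and 350.5 at day 21. P4HA2 had 4352, 4702 and 4868 on the smart scaffold, 4861, 4268, 4536 and 5153 on the media scaffold, and 1747 to 3016 on plastic. For both genes, day 0 lay above the later times on plastic and below both scaffolds, with no overlap. P4HA1 fell at day 3 against day 0 by 1.07 on the log2 scale (SE 0.20, adjusted p = 5.48e-04). The call rested on replicate 2 of day 3 and ended without it (log2 fold change -0.82). It also ended in edgeR (-0.84) and DESeq2 (-0.83), which were run without that library. P4HA2 had a log2 fold change of -0.62 at day 3 and -0.42 at day 21 against day 0, both with an adjusted p under 0.05 and below the fold threshold.

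At day 21, P4HA1 rose on the smart scaffold against plastic by 1.22 on the log2 scale (SE 0.22, adjusted p = 1.32e-04) and on the media scaffold by 1.15 (SE 0.21, adjusted p = 1.39e-04). P4HA2 rose by 1.09 on the smart scaffold (SE 0.11, adjusted p = 3.09e-07) and by 1.10 on the media scaffold (SE 0.11, adjusted p = 1.46e-07). These 4 calls depended on the plastic group of 2 libraries. Without plastic replicate 1, P4HA1 had log2 fold changes of 0.92 and 0.85 and P4HA2 of 0.93 and 0.95 on the smart and the media scaffold, under the fold threshold of 1. P4HB (ENSBTAG00000006045), the subunit shared by all forms and a general disulfide isomerase, did not pass the fold threshold in any comparison. It had 8845, 9437 and 9738 normalized reads on the smart scaffold, 8924, 9216, 8981 and 9949 on the media scaffold, and 9830.4 and 12247 on plastic at day 21. Its log2 fold change was -0.23 on the smart scaffold (95% interval -0.48 to 0.012) and -0.24 on the media scaffold (95% interval -0.48 to -0.012).

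Set against P4HA1 within a library, the P4HA3 signal rose on plastic by a log2 difference of 5.33 at day 3 and of 7.72 at day 21 against day 0, the second a 211-fold change of the ratio. The difference between each scaffold and plastic at day 21 was 0.10 for the smart scaffold and 0.14 for the media scaffold, and the libraries overlapped. The P4HA1 to P4HB ratio was higher on the smart scaffold than on plastic by a log2 difference of 1.45 and on the media scaffold by 1.40, with no overlap. In exact two-sided permutation tests over libraries, with 65 ratio tests in the family, the ratio differences with no overlap had the smallest p their design allows. That was 0.1 for 3 against 3 libraries, 0.2 for 3 against 2 and 0.133 for 4 against 2, and the smallest adjusted p was 0.255, so the ratios are given by their size and their spread.

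PLOD2 (ENSBTAG00000007331), the telopeptide lysyl hydroxylase, fell in time on plastic and was high on both scaffolds. It had 1354, 1163 and 1276 normalized reads on the smart scaffold and 910.2, 956, 1023 and 1025 on the media scaffold. On plastic it had 591, 578 and 585 at day 0, 214, 86.5 and 295 at day 3, and 62.1 and 79.0 at day 21. The 5 groups were ordered smart scaffold, media scaffold, then plastic at day 0, day 3 and day 21, and no neighbours in this order overlapped. At day 21 PLOD2 stood 17.9-fold above plastic on the smart scaffold (log2 fold change 4.15, SE 0.31, adjusted p = 6.98e-09). On the media scaffold it stood 13.9-fold above plastic (log2 fold change 3.78, SE 0.29, adjusted p = 1.16e-08). The plastic library of day 21 with fewer recovered reads, replicate 2, held 23 reads of PLOD2. Leaving out any single library gave log2 fold changes of 3.98 to 4.32 on the smart scaffold and 3.61 to 3.95 on the media scaffold.

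On plastic, PLOD2 fell by 1.72 on the log2 scale at day 3 (SE 0.28, adjusted p = 1.35e-04) and by 3.04 at day 21 (SE 0.31, adjusted p = 1.40e-07), both against day 0. At day 21 against day 3 it fell by 1.32 (SE 0.31, adjusted p = 0.00133), and the value was -0.95, under the fold threshold, without day 3 replicate 3. Against day 0, PLOD2 rose on the smart scaffold by 1.11 (SE 0.28, adjusted p = 0.00219), and this call was lost (0.88) when libraries were rescaled to the same total. Against day 0 the media scaffold had a log2 fold change of 0.74 (SE 0.26, adjusted p = 0.0188), which is under the fold threshold.

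PLOD1 (ENSBTAG00000002052) and PLOD3 (ENSBTAG00000000342), the other two lysyl hydroxylases, were higher at day 21 on every substrate than on plastic at day 0. For the scaffolds this comparison mixes time and substrate. PLOD1 had 1362, 1843 and 1606 normalized reads on the smart scaffold and 1806, 1710.4, 1679.8 and 2027 on the media scaffold. On plastic it had 778, 859 and 886 at day 0, 742, 866 and 689 at day 3, and 1604 and 1924 at day 21. The 3 groups of day 21 overlapped each other and lay above all libraries of day 0 and day 3. PLOD1 rose on plastic at day 21 against day 0 by 1.06 (SE 0.14, adjusted p = 2.33e-06) and against day 3 by 1.203 (SE 0.14, adjusted p = 8.75e-07). Without plastic replicate 2 of day 21 the change against day 0 was 0.93, under the fold threshold. PLOD1 differed from plastic at day 21 by -0.14 on the smart scaffold (95% interval -0.43 to 0.15) and by 0.036 on the media scaffold (95% interval -0.24 to 0.31). PLOD3 ranged over 1957 to 2099.8 on the smart scaffold, 1839 to 2044 on the media scaffold, and 1735 to 1783 on plastic at day 21, against 1048 to 1069.7 at day 0. Its log2 fold changes against day 0 were 0.93 on the smart scaffold, 0.90 on the media scaffold and 0.73 on plastic at day 21, all with an adjusted p under 0.05 and under the fold threshold.

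The PLOD2 to PLOD1 ratio was 19.6-fold higher on the smart scaffold and 13.4-fold higher on the media scaffold than on plastic at day 21. At day 21 on plastic it was 17.2-fold lower than at day 0, a log2 difference of -4.11. The groups did not overlap in any of these comparisons, and each exact permutation p was the smallest its design allows.

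**Figure D2:**
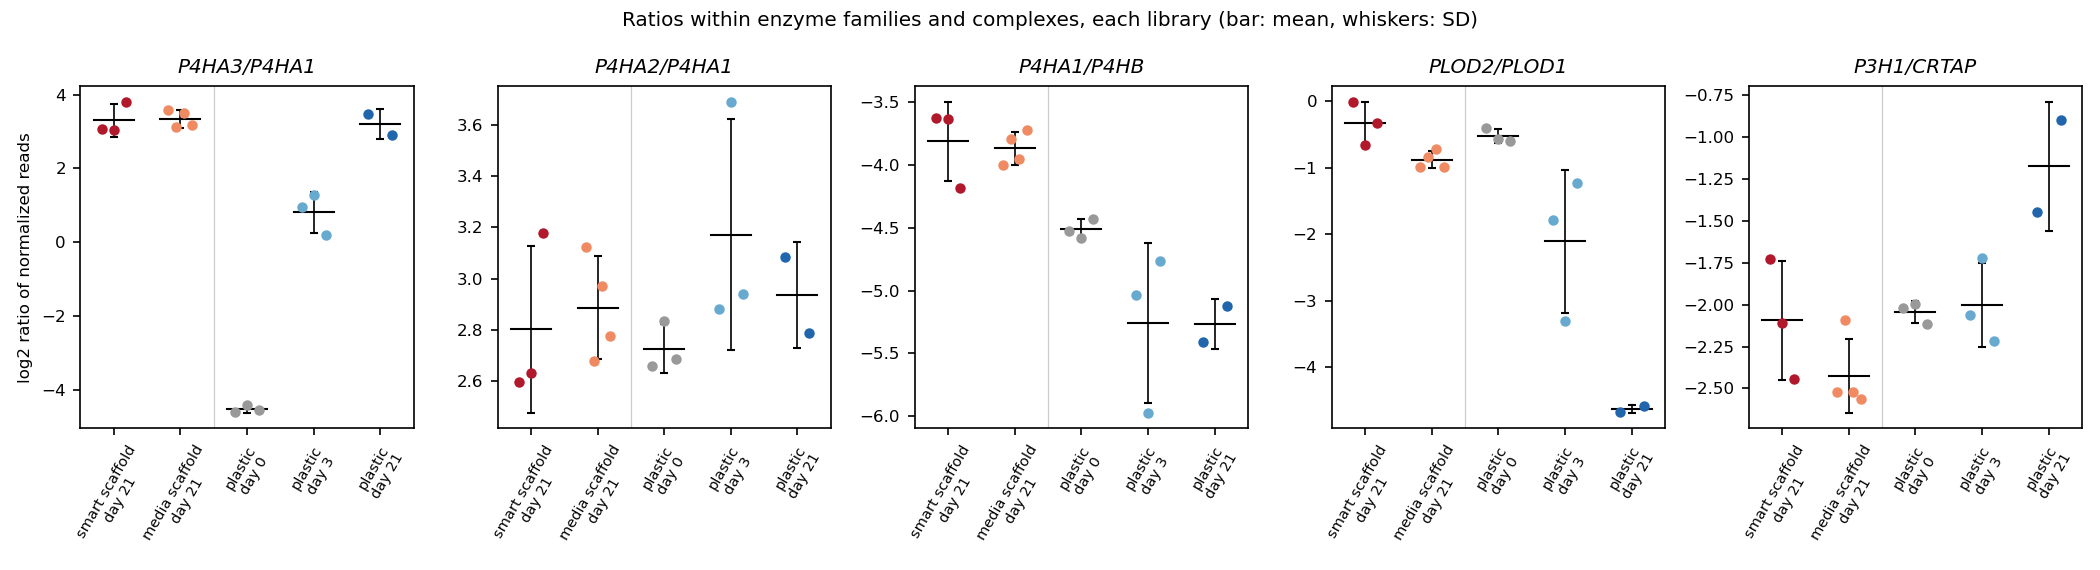
Log2 ratios between subunits or paralogs within each library (points) with group means (bars) and SD (whiskers), for the smart and media scaffold at day 21 and plastic at day 0, 3 and 21. The PLOD2 to PLOD1 ratio lies between -4.67 and -4.59 on plastic at day 21 and between -0.99 and -0.0088 on the scaffolds.

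P3H1 (ENSBTAG00000017382), the catalytic subunit of the prolyl 3-hydroxylase complex, had 642, 655 and 608 normalized reads on the smart scaffold and 630.3, 662, 615 and 565 on the media scaffold. The plastic values were 326, 346 and 347 at day 0, 333, 446 and 227 at day 3, and 699.7 and 698 at day 21. The plastic libraries of day 21 lay just above every scaffold library. P3H1 rose on plastic at day 21 against day 0 by 1.04 (SE 0.18, adjusted p = 6.75e-05) and against day 3 by 1.11 (SE 0.18, adjusted p = 4.69e-05). Both calls were near the fold threshold: the first ended in edgeR (0.99) and the second without day 3 replicate 3 (0.86). P3H1 differed from plastic at day 21 by -0.14 on the smart scaffold (95% interval -0.52 to 0.24) and by -0.18 on the media scaffold (95% interval -0.54 to 0.18).

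CRTAP (ENSBTAG00000021442), the non-catalytic partner of P3H1, had 2133, 2832 and 3309 normalized reads on the smart scaffold and 3619, 2828, 3540.2 and 3336 on the media scaffold. The plastic values were 1325, 1382 and 1507 at day 0, 1392, 1476 and 1059 at day 3, and 1910.0 and 1306 at day 21. The 3 plastic groups overlapped, and every scaffold library lay above every plastic library. CRTAP rose on the media scaffold against plastic at day 21 by 1.07 (SE 0.18, adjusted p = 5.31e-05), with 0.80 when plastic replicate 2 was left out. On the smart scaffold the log2 fold change was 0.78 (SE 0.19, adjusted p = 0.0015), with 1.05 and a call when plastic replicate 1 was left out. The P3H1 to CRTAP ratio was lower than on plastic at day 21 by a log2 difference of -0.92 on the smart scaffold and -1.25 on the media scaffold, with no overlap. On plastic it was higher at day 21 than at day 0 by 0.87.

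SERPINH1 (ENSBTAG00000001027), the chaperone HSP47, had 4943, 4846 and 4362 normalized reads on the smart scaffold and 4399.8, 4363, 4454 and 4115 on the media scaffold. Plastic libraries had 2221, 2039 and 2057 at day 0, 1349.9, 1351 and 934 at day 3, and 1836 and 1574 at day 21. Scaffold libraries lay above all plastic libraries, and the plastic groups did not overlap each other. SERPINH1 rose at day 21 on the smart scaffold against plastic by 1.47 (SE 0.14, adjusted p = 7.78e-08), a ratio of means of 2.77. On the media scaffold it rose by 1.35 (SE 0.13, adjusted p = 1.19e-07), a ratio of means of 2.54. Its log2 fold change at day 3 against day 0 was -0.82 (SE 0.12, adjusted p = 6.35e-05), which is under the fold threshold.

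**Figure D3:**
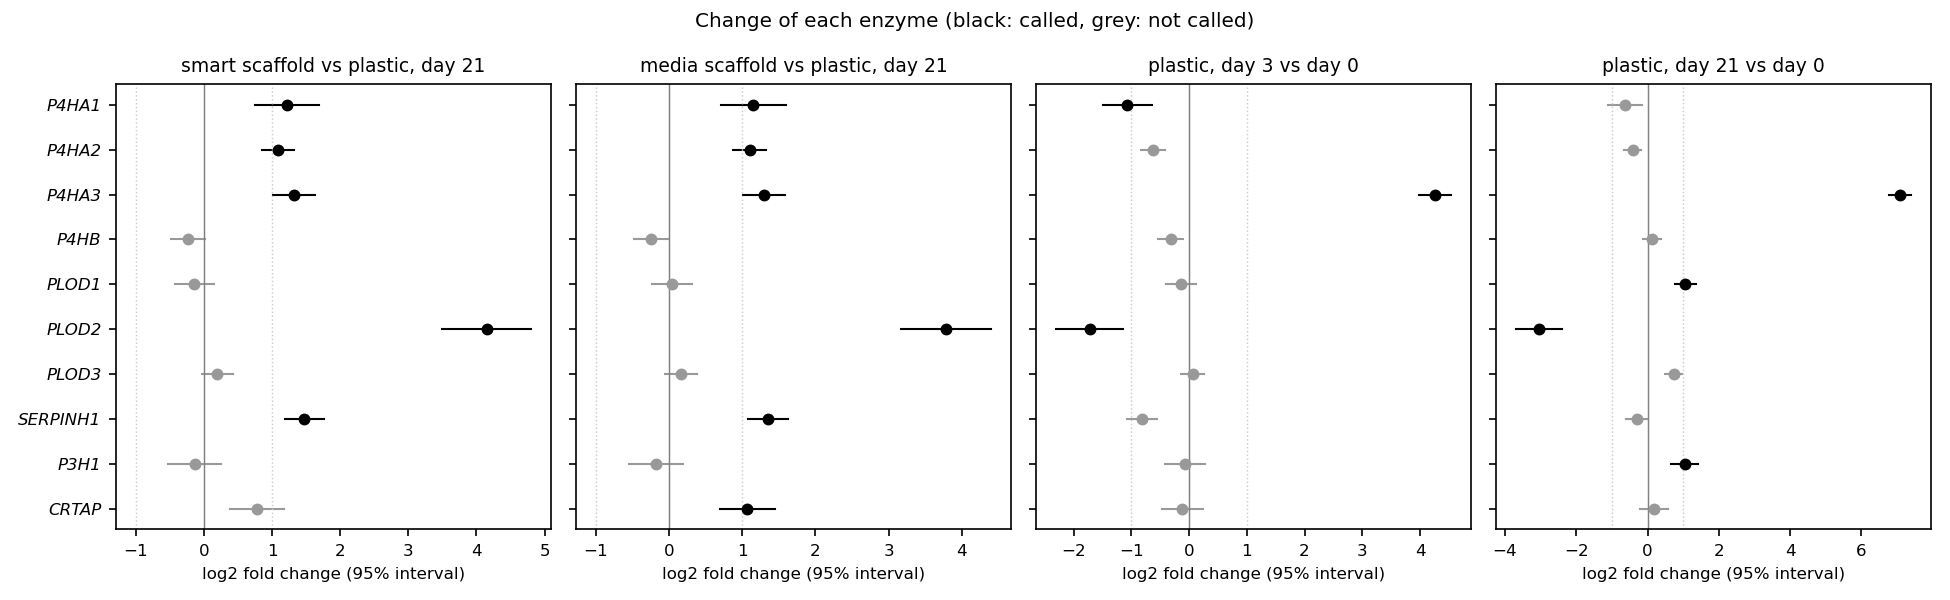
Log2 fold changes of the 10 genes (points) with 95% intervals (bars) from limma for smart scaffold against plastic at day 21, media scaffold against plastic at day 21, plastic day 3 against day 0 and plastic day 21 against day 0. Black points passed both thresholds, grey ones did not, and dotted lines mark log2 fold changes of -1 and 1. On the scaffolds PLOD2 stands at 4.15 and 3.78, and P4HB, PLOD1, PLOD3 and P3H1 lie between -0.24 and 0.20.

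In time on plastic the 10 genes moved in several directions. At day 3 against day 0, 1 rose (P4HA3) and 2 fell (P4HA1 and PLOD2), where 10% of all tested genes changed, 6.27% rising and 3.73% falling. At day 21 against day 0, 3 rose (P4HA3, PLOD1 and P3H1) and 1 fell (PLOD2), where 45.2% of all tested genes changed, 21.2% rising and 24.1% falling. At day 21 against day 3 the same 3 rose and the same 1 fell, where 34.9% of all tested genes changed, 15.5% rising and 19.4% falling. Libraries did not overlap for 6 of the 10 genes at day 3 against day 0 (44.3% of all tested genes), for 8 at day 21 against day 0 (79.7%) and for 7 at day 21 against day 3 (65.4%). These shares of the 10 genes are near those of the whole table at day 21. Within day 3 the coefficient of variation ran from 7.34% for P4HA2 to 52.9% for PLOD2. Replicate 2 of day 3 was lowest for PLOD2 and P4HA1 and highest for P4HB, PLOD1, P3H1 and CRTAP, and for SERPINH1 about level with replicate 1. Replicate 3 of day 3, with the fewest reads of its group, was lowest for P4HA3, P4HB, PLOD1, PLOD3, SERPINH1, P3H1 and CRTAP.

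Against day 0, 3 genes rose on the smart scaffold (P4HA3, SERPINH1 and PLOD2) and 0 fell, where 30.6% of all tested genes changed, 16.5% rising and 14.1% falling. On the media scaffold 4 rose (P4HA3, CRTAP, PLOD1 and SERPINH1) and 0 fell, where 32.4% of all tested genes changed, 17.5% rising and 14.9% falling. Apart from P4HA3, with 8.42 and 8.39, these calls lay between 1.04 and 1.24 on the log2 scale. Without smart scaffold replicate 1, 5 genes were called against day 0, PLOD1 (1.03) and CRTAP (1.13) being the added ones. All 10 genes had scaffold libraries that did not overlap those of day 0, as did 72.9% of all tested genes for the smart scaffold and 72.4% for the media scaffold. P4HB was the gene of the 10 that lay below day 0. Its log2 fold change was -0.10 on the smart scaffold (adjusted p = 0.40) and -0.12 on the media scaffold (adjusted p = 0.31). Its highest scaffold library had 9949.2 normalized reads, against 9959.8 in the lowest library of day 0.

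Comparisons of day 21 with day 0 depended on scaling more than those between substrates. When all libraries were rescaled to the same total, the median of all genes shifted by -0.257 on plastic, -0.224 on the smart scaffold and -0.246 on the media scaffold, and by -0.319 for day 21 against day 3. The share of rises among called genes on the deposited scaling was 46.8% for plastic day 21 against day 0, 44.5% for plastic day 21 against day 3, and 53.9% for each scaffold against day 0. After rescaling these shares were 35.6%, 27.3%, 39.7% and 39.7%. P4HA3 and PLOD2 kept their calls on plastic in both comparisons of day 21, while PLOD1 (0.80 against day 0) and P3H1 (0.77) lost theirs. Under quantile normalization PLOD1 and P3H1 also fell short of the threshold against day 0, each with 0.99. On the scaffolds against day 0 the call for P4HA3 remained after rescaling, and the other calls were lost. PLOD2 then had 0.88 and SERPINH1 0.93 on the smart scaffold, and PLOD1 had 0.85, SERPINH1 0.79 and CRTAP 0.99 on the media scaffold. At day 21, scaffold against plastic calls of the 10 genes did not change, with median shifts of 0.032 on the smart and 0.015 on the media scaffold.

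Between the scaffolds, 0 of the 10 genes changed on the smart scaffold against the media scaffold in limma, edgeR or DESeq2, and 0 had an unadjusted limma p under 0.05, where 0.903% of all tested genes changed, 0.073% rising and 0.83% falling. The log2 fold changes lay between -0.29 (CRTAP, 95% interval -0.62 to 0.041) and 0.37 (PLOD2, 95% interval -0.18 to 0.91). PLOD2 was the gene of the 10 whose libraries did not overlap between the scaffolds, as was true for 20.4% of all tested genes. Its adjusted p was 0.617 in the fit of all groups, 0.0681 with edgeR on 13 libraries, 0.0298 with DESeq2 and 0.00327 when the scaffold libraries were fitted alone. The fold was under the threshold in each of these fits. The PLOD2 to PLOD1 ratio was 1.46-fold higher on the smart scaffold, with no overlap and an exact permutation p of 0.0571, the smallest that 3 against 4 libraries can give.

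The main substrates of these enzymes also rose on the scaffolds. COL1A1, the main chain of type I collagen, averaged 235487 ± 24565 normalized reads on the smart scaffold (SD, n = 3) and 228228 ± 8451 on the media scaffold (n = 4). On plastic it averaged 46336 ± 1319 at day 0 (n = 3), 32739.6 ± 1635 at day 3 (n = 3) and 86796 ± 18865 at day 21 (n = 2). At day 21 against plastic, COL1A1 rose by 1.45 on the smart scaffold and by 1.41 on the media scaffold, and COL1A2 rose by 2.39 and 2.36. COL3A1, the chain of type III collagen, rose by 2.11 and 2.32. Quantile normalization, which compresses genes at the top of the range, gave 0.65 and 0.65 for COL1A1 on the smart and media scaffold, with no call.

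Relative to the summed signal of COL1A1, COL1A2 and COL3A1 in the same library, 9 of the 10 enzymes had a lower mean on both scaffolds than on plastic at day 21. On the smart scaffold the libraries of P4HA1 and SERPINH1 overlapped those on plastic (exact permutation p = 0.4 and 0.6), and the other 7 did not overlap on either scaffold, nor did these genes on the media scaffold. The log2 differences on the smart and media scaffold were -1.94 and -1.96 for P4HB, -1.84 and -1.89 for P3H1, -1.85 and -1.68 for PLOD1, and -1.51 and -1.55 for PLOD3. Each difference is the gene's own change less a collagen change shared by all 10, so their order restates the fold changes above. Apart from PLOD2, the genes that rose on both scaffolds therefore had smaller deficits. These were -0.24 and -0.36 for SERPINH1, and -0.38 and -0.42 for P4HA3. For P4HA1 they were -0.49 and -0.56, and for P4HA2 -0.62 and -0.61. CRTAP stood at -0.93 and -0.64. PLOD2 was the exception, with 5.45-fold more signal per collagen read on the smart scaffold and 4.20-fold more on the media scaffold. In time on plastic, PLOD2 per collagen read was 13.99-fold lower at day 21 than at day 0, and P4HA3 per collagen read was 80.6-fold higher. With COL1A1 alone as the substrate, the difference for SERPINH1 on the smart scaffold was 0.018. The ratios were not run with quantile normalization, which gave COL1A1 a smaller change, so the deficits are those of the deposited values.

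**Figure D4:**
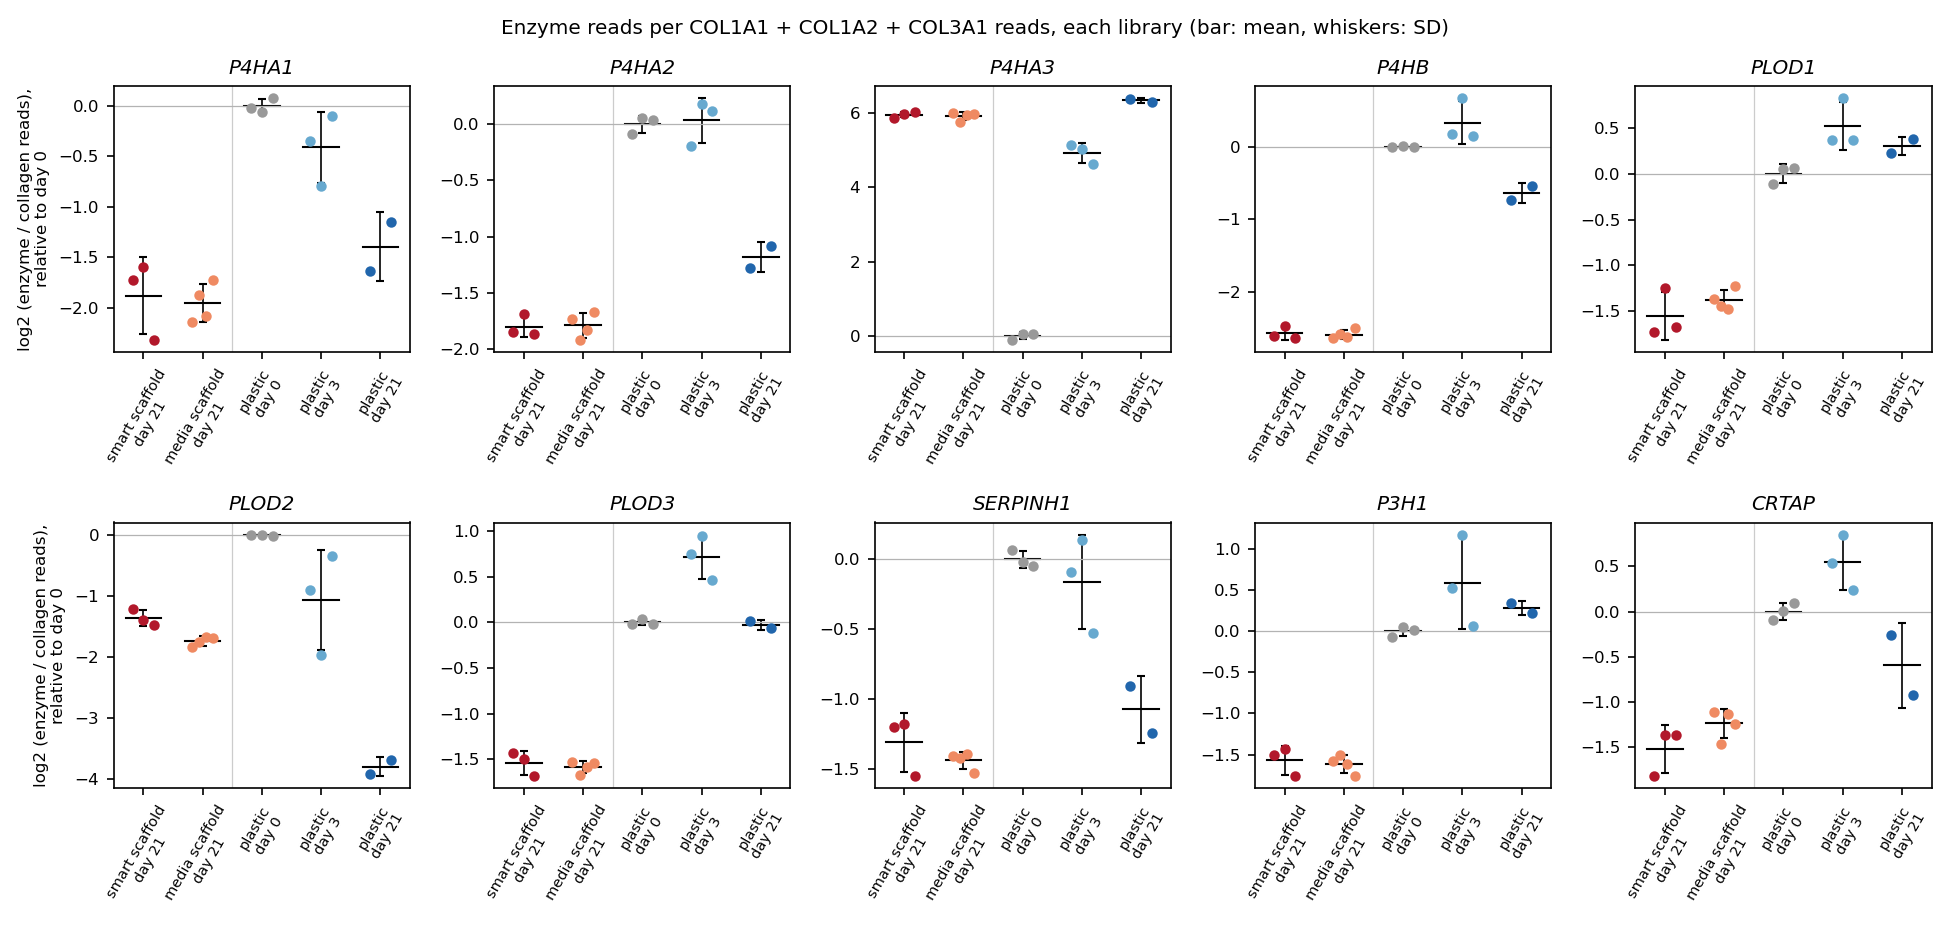
Log2 ratio of each enzyme to the summed signal of COL1A1, COL1A2 and COL3A1 in each library (points) with group means (bars) and SD (whiskers), for the smart and media scaffold at day 21 and plastic at day 0, 3 and 21. From each log2 ratio the mean of plastic at day 0 was subtracted. PLOD2 is 5.45-fold and 4.20-fold higher per collagen read on the smart and media scaffold than on plastic at day 21, and P4HB is 3.84-fold and 3.89-fold lower.

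Of 9 tested genes in a wider list around collagen modification, 6 rose and 2 fell on plastic at day 21 against day 0. Their median was 1.21, against -0.056 over all genes, and 4 rose after rescaling to the same total. The list was not confined to enzymes of collagen chains and also held P4HTM, ASPH and TMEM38B. P4HTM had the largest rise of the list here, with 3.15. Of all tested genes, 21.2% rose and 24.1% fell in this comparison on the deposited scaling. P3H4, a partner of lysyl hydroxylation in the endoplasmic reticulum, averaged 2972 ± 62.1 normalized reads on plastic at day 21 (SD, n = 2), against 1126 ± 67.7 at day 0 (n = 3). COLGALT1, which adds galactose to hydroxylysine, rose by 1.36 and the peptidyl-prolyl isomerase FKBP10 by 1.21 in this comparison. Against plastic at day 21, 1 of the 9 rose (TMEM38B, 1.13, with overlapping libraries) and 1 fell (P4HTM, -1.35) on the smart scaffold. On the media scaffold 0 rose and 2 fell (P4HTM, -1.28, and P3H2, -1.04). The medians of the list were -0.45 on the smart and -0.29 on the media scaffold. Of all tested genes, 21.4% rose and 16% fell on the smart scaffold, and 20.8% and 14.6% on the media scaffold. P3H4, FKBP10 and COLGALT1 differed there by 0.10 to 0.30 on the log2 scale. PPIB, the isomerase of the P3H1 complex, had log2 fold changes of -0.93 on the smart and -0.66 on the media scaffold, under the fold threshold. P3H2, another prolyl 3-hydroxylase, fell against day 0 in all 4 later groups. Its log2 fold change against day 0 was -1.997 at day 3 and -3.21 at day 21 on plastic, -3.90 on the smart scaffold and -4.25 on the media scaffold. Against plastic at day 21 it fell on the media scaffold (-1.04). P3H3, P3H4, COLGALT1, FKBP10 and PPIB were chosen for mention after their values had been seen, and P3H3 rose on plastic at day 21 against day 0 by 1.62.

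Among 9 tested genes of trimming and cross-linking, 2 rose and 2 fell on each scaffold against plastic at day 21. The counts of this and the following lists on the scaffolds stand beside 21.4% rising and 16% falling over all tested genes on the smart scaffold, and 20.8% and 14.6% on the media scaffold. The counts for trimming and cross-linking are near these shares. LOX, the lysyl oxidase that starts cross-links from lysines and hydroxylysines, averaged 1184 ± 80.9 normalized reads on the media scaffold (n = 4), against 255 ± 32.9 on plastic (n = 2), and rose by 2.21. That scaffold level was below the one of plastic at day 0, where LOX averaged 1725 ± 84.2 (n = 3). By day 3 on plastic LOX had fallen, with a log2 fold change of -1.99 against day 0. LOXL1, a related oxidase, averaged 1805 ± 291 on the media scaffold and 9099 ± 773 on plastic, and fell by 2.35. On the smart scaffold LOXL1 averaged 1019.6 ± 147 (n = 3) and fell by 3.16. Its mean on plastic at day 0 was 1049 ± 69.1 (n = 3). PCOLCE, an enhancer of procollagen trimming, rose on plastic at day 21 against day 0 by 3.60.

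The fibrillar collagen chains rose on the scaffolds in 5 of 8 tested genes and fell in 1, with medians of 1.65 on the smart and 1.69 on the media scaffold against plastic at day 21. COL11A1, a minor chain of cartilage-type fibrils, averaged 5633 ± 692 normalized reads on the smart scaffold and 5054 ± 543 on the media scaffold, against 463 ± 67.1 on plastic. In 15 tested genes of collagen export, 9 rose and 0 fell on each scaffold, with medians of 1.501 on the smart and 1.25 on the media scaffold. With quantile normalization 1 of them fell on the media scaffold. KDELR3, a retrieval receptor that returns endoplasmic reticulum proteins from the Golgi, rose by 3.797 on the smart and 3.62 on the media scaffold. SEC24D, a coat protein of the vesicles that carry procollagen, rose by 2.41 and 2.20. Against day 0, 5 of the 15 export genes fell and 0 rose on plastic at day 21 (median -0.74). On the smart scaffold 4 rose and 1 fell against day 0 (median 0.50), and on the media scaffold 4 rose and 2 fell (median 0.51). The shares over all tested genes against day 0 are given below with the chaperones. Against plastic at day 21, 7 of 18 tested general chaperones and disulfide isomerases rose on the smart scaffold, 4 on the media scaffold, and 0 fell. The lectin chaperone CANX was among them, with 1.47 and 1.41. Against day 0, 8 of the 18 fell and 0 rose on plastic at day 21 (median -0.96). Of all tested genes, 24.1% fell and 21.2% rose there. On the smart scaffold 2 of the 18 rose and 3 fell against day 0 (median -0.35), beside 16.5% and 14.1%. On the media scaffold 2 rose and 5 fell against day 0 (median -0.40), beside 17.5% and 14.9%.

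Genes of the hypoxia response, several of which share regulation by HIF with P4HA1 and PLOD2 in human and mouse cells, fell on plastic at day 21 against day 0 in 14 of 23 tested genes, while 2 rose. Over all tested genes, 24.1% fell and 21.2% rose in that comparison. Against plastic at day 21, 9 of the list rose and 1 fell on the smart scaffold, and 10 rose and 1 fell on the media scaffold. Against day 0, where PLOD2 had log2 fold changes of 1.11 and 0.74, the list lay lower on both scaffolds: 2 rose and 7 fell on the smart scaffold (median -0.91), and 4 rose and 7 fell on the media scaffold (median -0.55). The shares over all tested genes against day 0 were 16.5% rising and 14.1% falling on the smart scaffold. On the media scaffold they were 17.5% and 14.9%. ADM (adrenomedullin) was the gene that fell against plastic at day 21, with 1842 ± 233 normalized reads on the smart scaffold and 2073 ± 277 on the media scaffold, against 25087 ± 2178 on plastic. LDHA, the glycolytic lactate dehydrogenase, and EGLN1, a HIF prolyl hydroxylase of the same enzyme class, moved the other way, both chosen for mention after their values had been seen. LDHA averaged 4048 ± 400 on the smart scaffold and 4471 ± 719 on the media scaffold, against 783 ± 325 on plastic at day 21. EGLN1 averaged 702 ± 23.4 on the smart scaffold and 796 ± 52.7 on the media scaffold, against 253 ± 120 on plastic at day 21. LOX, ERO1A, SLC2A1, EGLN1, EGLN3 and KDM3A each stand in 2 of the lists. Oxygen was not among the labelled variables, and the part of these genes in the PLOD2 result was not tested. Of 7 tested genes of ascorbate and iron supply, 2 rose on the smart scaffold and 3 on the media scaffold against plastic at day 21, and 0 fell. Against day 0, 2 rose and 3 fell on each scaffold, and 2 rose and 5 fell on plastic at day 21. The shares over all tested genes against day 0 are those given above. Of 15 tested other 2-oxoglutarate dioxygenases, 5 rose and 3 fell on each scaffold against plastic at day 21. None of the tested genes of any list changed on the smart scaffold against the media scaffold.

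Across the 15 libraries, the closest pairs among the 10 genes were P4HA2 with SERPINH1 (Pearson r of log2 values 0.946) and PLOD1 with PLOD3 (r = 0.938). The pair least alike was P4HB with PLOD2 (r = -0.16). The gene most like PLOD2 among all tested genes with a symbol was TMED7 (r = 0.983), followed by KLF10 and HBS1L. The gene most like P4HA3 was ITGB5 (r = 0.996), and the gene most like SERPINH1 was COL1A2 (r = 0.981). PLOD3 was most like COPZ2 (r = 0.992), P3H1 most like CHPF2 (r = 0.988), PLOD1 most like COL8A2 (r = 0.980) and P4HA2 most like C1QTNF3 (r = 0.976). P4HA1 was most like TBXA2R (r = 0.973), CRTAP most like ZNF502 (r = 0.972) and P4HB most like RPL38 (r = 0.927). The libraries fall into 5 groups and share scaling, so these values describe the group pattern and carry no p.

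Recovered reads per library ran from 2197356 on plastic at day 21 to 15483745 at day 0, and 0 of the 10 genes had fewer than 23 reads in any library. All 7 mesenchymal stromal markers were in the table, with a summed level of 106595 to 117152 on the smart scaffold, 125145 to 135112 on the media scaffold and 76085 to 99425 on plastic. Most of this sum was VIM, and other stromal markers moved apart from it. THY1 stood at 9223 to 10753 on the smart scaffold and 14529 to 16749 on the media scaffold, and on plastic at 366 to 421 at day 0, 594 to 1052 at day 3 and 16478 to 19765 at day 21. ENG stood at 514 to 626 on the scaffolds and 2935 to 3879.5 on plastic at day 21. CD44 stood at 699.9 to 939 on the scaffolds and 334 to 337 on plastic at day 21. The 2 chondrocyte markers of 4 found in the table, ACAN and COMP, summed to 134 to 184 on the smart scaffold and 80.6 to 113 on the media scaffold, against at most 7.11 on plastic, where COMP was at 0 at day 21. The 3 adipocyte markers of 4 in the table summed to 294 to 383 on the smart and 454 to 808 on the media scaffold, against at most 80.05 on plastic. The 3 blood and immune markers of 5 in the table summed to 86.9 to 109.96 on plastic at day 21 and to at most 29.0 elsewhere. The 5 smooth muscle markers summed to 78769.8 to 92233 on the smart scaffold, 63619 to 76716 on the media scaffold, and on plastic 32740 to 37269 at day 0, 17421 to 20346 at day 3 and 81718 to 87872 at day 21. Most of this sum was ACTA2. It was 60997 to 73262.5 on the smart and 45332 to 56853 on the media scaffold, against 57802 to 59320 on plastic at day 21. MYH11, CNN1 and TAGLN were lower on both scaffolds than on plastic at day 21. MYH11 was 1061 to 1594 on the scaffolds against 2306 to 2632. CNN1 was 4364 to 6667 against 9411 to 11085, and TAGLN 232 to 344 against 360 to 533. DES was lower on the smart scaffold and overlapped that plastic group on the media scaffold. The 4 skeletal muscle markers of 6 in the table summed to 10689 to 11315 on the smart scaffold and 10868 to 12161 on the media scaffold, and on plastic to 946 to 1031 at day 0, 882 to 1724 at day 3 and 11914 to 14405 at day 21. Nearly all of this sum was DES, which is also a smooth muscle marker. TNNT3, a fast troponin, stood at 72.2 to 73.1 on plastic at day 21 and at most 1.15 elsewhere, MYH3 reached at most 6.87 and ACTA1 at most 24.1. Of 4 endothelial markers VWF was found, at 4.80 to 37.8, and of 4 epithelial markers CDH1, at 0 to 5.97. The other markers were not analysed here. The part of these cell types in the enzyme results was not tested.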

How the data were processed

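MARS-seq data of 15 libraries in 5 groups were used. Per the submitters' processing notes, reads went through cutadapt, STAR, HTSeq and DESeq on the build ARS-UCD1.2, with no versions named. The sources used here do not give the use of molecular identifiers or of strand, so reads of overlapping and antisense genes cannot be separated. For 12894 genes the authors deposited a normalized signal, read counts divided by 1 factor per library. Multiples of the value of a single read were whole for 100% of values within a tolerance of 0.1, and the recovered reads per library had a median of 7510490. The names of 2 value columns matched no label, so they were not used, and the planned comparisons with scaffold cells of day 0 were not run.

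The main test was limma 3.58.1 in R 4.3.3, with trend and robust options, on log2(value + 1) of 15 libraries with a mean per group. Genes with a mean of at least 5 were tested, which left out 1934 genes, and two-sided p-values received Benjamini-Hochberg adjustment separately for 8 comparisons. Fold changes on this scale understate those of low genes. Ratios within libraries were tested by exact two-sided permutation in scipy 1.17.1, adjusted over 65 tests. edgeR 4.0.16 and DESeq2 1.42.0 were run on recovered reads of 13 libraries as alternatives. The other 2, day 3 replicate 2 and media scaffold replicate 2, have a value per read close to 1 and were left out of these tests, although their values were whole multiples of it too. The fitting procedure was tested on simulated data. Other alternatives were a pseudocount of 0.5 or 4, a minimum mean of 20 or none, a common total, quantile normalization, fits of 2 groups, the replicate number as a block, COL1A1 as sole substrate, and each library left out. A limma fit of the 13 libraries was added after seeing the data.

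The 10 genes, the 8 gene lists, the cell type markers and the naming rule were chosen with earlier results of these data known. By rule, the text takes its named genes from the 10 members, COL1A1, COL1A2 and COL3A1, the 2 called genes with the largest change per list and comparison, and the 3 genes most correlated with each member. Apart from the cell type markers, genes named outside the rule are marked as such. List counts are descriptions and no set test was run. Coordinates are left out, since the reference at hand has another build than the reads.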

Additional observations from a re-analysis of the deposited data

Results flagged for a closer look

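The log2 ratio of P3H1 to CRTAP was -2.52, -2.09, -2.52 and -2.56 in the 4 media scaffold libraries. Replicate 2 stood apart from the other 3, with a gap to its nearest neighbour of 0.911 of the group's range, which is past the 95% limit of Dixon's test for 4 samples. It was 1 of 15 values checked in this way, and chance gives about 1 in 20.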

How the results depend on the processing

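Pseudocounts of 0.5 and 4, both other filters and fits of 2 groups kept each count of called genes within 1.5 times that reported. Rescaling to the same total gave 2 called genes for plastic day 21 against day 0, 2 against day 3, 1 for the smart scaffold against day 0 and 1 for the media scaffold against day 0. Quantile normalization gave 2 for plastic day 21 against day 0. The shift of the median of all genes given above accompanied the rescaling, and the cause was otherwise not tested. With single libraries left out, counts ran from 3 to 5 for the smart scaffold against day 0 and from 2 to 4 for plastic day 21 against day 3. Reversed signs were confined to small differences that were not called. After rescaling they were CRTAP (-0.094 for day 21 against day 0 and -0.046 against day 3), P4HB (-0.14 for day 21 against day 0), and P4HA2 (-0.13 for day 21 against day 3, 0.0013 for smart against media scaffold). P4HB was -0.19 for day 21 against day 0 under quantile normalization. P4HA3 between the scaffolds was -0.020 in edgeR, -0.017 in DESeq2 and -0.027 in limma on 13 libraries. With COL1A1 alone, the collagen ratio of P4HA2 at day 3 was -0.12 and that of SERPINH1 on the smart scaffold was 0.018.

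The replicate numbers were not shown to pair the libraries: deviations of libraries with the same number correlated by -0.074 to 0.043, and by 0.112 and 0.157 in the 2 pairs of day 21 and day 3 on plastic. With the number as a block, 3 of the 10 genes were called at day 21 against day 0 on plastic (P3H1 had 0.97), 5 on the smart and 6 on the media scaffold against plastic. Under the block PLOD1 was -0.0086 on the media scaffold against plastic, and P4HA2 was 0.027 and P3H1 -0.0011 between the scaffolds.

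With single libraries left out, signs of uncalled values turned within these ranges. At day 3 against day 0, CRTAP ran from -0.21 to 0.032, P3H1 from -0.30 to 0.18 and PLOD3 from -0.011 to 0.18. At day 21 against day 0 on plastic, CRTAP ran from -0.10 to 0.45 and P4HB from -0.030 to 0.29. PLOD1 on the media scaffold against plastic ran from -0.096 to 0.17. Between the scaffolds, P4HA1 ran from -0.029 to 0.22, P4HA2 from -0.063 to 0.028, P4HA3 from -0.075 to 0.088, P4HB from -0.019 to 0.050 and P3H1 from -0.0011 to 0.075. Collagen ratios ran from -0.037 to 0.15 for P4HA2 and from -0.31 to 0.022 for SERPINH1 at day 3, and from -0.069 to 0.0098 for PLOD3 at day 21, against day 0. The P3H1 to CRTAP ratio at day 3 ran from -0.096 to 0.15, and P4HA1 to P4HB between the scaffolds from -0.040 to 0.24. P4HA2 to P4HA1 ran from -0.32 to 0.013 on the smart and -0.20 to 0.097 on the media scaffold against plastic, and from -0.27 to 0.018 between the scaffolds. P4HA3 to P4HA1 ran from -0.18 to 0.39, -0.14 to 0.43 and -0.29 to 0.096 in the same comparisons. The smaller of the 2 plastic libraries of day 21 held 23 reads of PLOD2, the fewest of any of the 10 genes in a library. Planned count tests of all 15 libraries were run on 13.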
